A study of Mus musculus with 15 samples.

Results

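The genes examined were the Fc receptors and the first signaling proteins they engage: the IgG receptors Fcgr1, Fcgr2b, Fcgr3 and Fcgr4, their shared signaling chain Fcer1g, the neonatal Fc receptor Fcgrt, the kinases Syk, Btk and Lyn, and the phosphatase Ptpn6. They were chosen by name. Of these 10 genes, 9 were found among the 561 genes of the count table, and 8 of the 269 genes that passed the filter on low counts were among them. Fcgrt was below the filter and outside the tested set, and Lyn was not analysed here.

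RAW 264.7 macrophages, an established mouse cell line made from a virus-induced tumor, received LPS together with plasma extracellular vesicles (EVs) for 24 hours, and mRNA was counted with the nanoString nCounter Mouse Immunology panel. The EVs came from female C57BL/6J mice, either sham mice or mice 3 or 7 days after whole-body ionizing radiation (WBIR) of 2 or 9 Gy, which gives 5 groups of 3 samples, 15 in all. The groups are named by their EVs: sham, 2 Gy day 3, 2 Gy day 7, 9 Gy day 3 and 9 Gy day 7. All 5 groups received LPS, so that every value describes macrophages already stimulated by LPS, and the line is a single tumor-derived line rather than tissue macrophages.

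IgG bound to a particle is read by macrophages through Fc gamma receptors. The activating receptors signal through the Fc receptor gamma chain, encoded by Fcer1g, whose ITAM motif is phosphorylated by Src-family kinases such as Lyn and then recruits the kinase Syk. The inhibitory receptor Fcgr2b instead carries an ITIM motif in its own tail, which recruits phosphatases, so the balance of activating and inhibitory receptors sets how strongly immune complexes trigger phagocytosis and cytokine release.

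The promoters of the 4 IgG receptor genes are shown because these genes parted ways in the counts described below. Each runs 5′ to 3′ from 250 bases before to 50 bases after a RefSeq transcript start (GRCm38.p6), in lower case with motif matches in capitals.
Fcgr1, minus strand, chr3:96293920-96294219: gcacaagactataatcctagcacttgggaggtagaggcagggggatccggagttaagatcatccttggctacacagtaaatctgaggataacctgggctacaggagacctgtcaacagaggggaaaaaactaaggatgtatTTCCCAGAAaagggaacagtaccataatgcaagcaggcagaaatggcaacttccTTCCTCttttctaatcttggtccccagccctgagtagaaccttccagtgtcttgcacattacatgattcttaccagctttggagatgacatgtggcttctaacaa
Fcgr2b, minus strand, chr1:170976022-170976321: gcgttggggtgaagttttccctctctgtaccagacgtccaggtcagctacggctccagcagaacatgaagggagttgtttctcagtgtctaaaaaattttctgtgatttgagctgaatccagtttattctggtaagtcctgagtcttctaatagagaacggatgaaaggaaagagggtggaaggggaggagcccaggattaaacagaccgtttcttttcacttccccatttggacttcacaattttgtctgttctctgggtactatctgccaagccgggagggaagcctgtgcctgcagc
Fcgr3, minus strand, chr1:171059354-171059653: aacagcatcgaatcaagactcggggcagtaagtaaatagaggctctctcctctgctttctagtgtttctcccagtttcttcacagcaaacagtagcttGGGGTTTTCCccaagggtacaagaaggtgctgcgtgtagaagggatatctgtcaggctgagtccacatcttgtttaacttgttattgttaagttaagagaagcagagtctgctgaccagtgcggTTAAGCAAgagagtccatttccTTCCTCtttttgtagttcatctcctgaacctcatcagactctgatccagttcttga
Fcgr4, plus strand, chr1:171018676-171018975: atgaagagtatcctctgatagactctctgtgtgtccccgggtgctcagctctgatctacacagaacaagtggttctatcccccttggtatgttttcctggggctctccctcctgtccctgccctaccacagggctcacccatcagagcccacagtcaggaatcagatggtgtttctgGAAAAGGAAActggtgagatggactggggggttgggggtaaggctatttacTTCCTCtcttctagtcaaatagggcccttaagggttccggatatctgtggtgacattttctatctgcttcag

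The capitals mark 5 motifs searched on both strands. The PU.1 core GAGGAA, the binding core of a transcription factor of myeloid cells, lies 55 bases before the start in Fcgr1, 6 bases before it in Fcgr3 and 22 bases before it in Fcgr4. It was present in 28.3% of all 32851 promoters of the same length. The Fcgr1 promoter also holds a GAS element, TTCNNNGAA, 109 bases before the start (8.3% of all promoters). The Fcgr3 promoter holds a kappaB match (GGG, any 2 bases, TTTCC) 152 bases (1.63% of all promoters) and the C/EBP letters TTGCNNAA 28 bases (10.8%) before its start. The Fcgr4 promoter holds an ISRE core (GAAA, any 2 bases, GAAA) 73 bases before its start (3.44%). RefSeq gives Fcgr3 another start close by, from which the PU.1, C/EBP and kappaB letters lie 15, 37 and 161 bases upstream. None of these 5 sets of letters is in the Fcgr2b window shown, and no matches overlap each other. A match is a run of letters and not a binding site. On chromosome 1 the order of protein-coding genes is Fcgr2b, Fcgr4, Fcgr3 and then, after 7 other genes, Fcer1g, so that neighbors on this chromosome are found among the genes that fell and among those that did not.

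One group differs from the others in depth and in its labels. Total counts were 43176 to 87899 in the 9 Gy day 3 samples and 453178 to 837995 in the others, and 96 to 137 of the 269 tested genes were under 20 counts in a 9 Gy day 3 sample, as opposed to 2 to 15 elsewhere. Replicates 1 and 2 of the group titled 9 Gy day 3 are labelled day 7 in a second field. Titles decided their group here, and the calls and the shifts of ratios to Fcgr2b at 9 Gy day 3 are also given with these samples left out. Levels are normalized counts, meaning raw counts scaled to the geometric mean of 14 housekeeping genes, and they are compared between groups and never between genes, because probes differ. Fewer cells and less RNA per cell cannot be told apart in such bulk samples. The methods state that samples were run in triplicate without saying whether these were separate cultures, so p-values measure the spread between these samples, which may be technical.

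Against sham EVs, the inhibitory receptor Fcgr2b had the largest fall of the genes examined with 9 Gy EVs of both days, followed by the high-affinity receptor Fcgr1, while the activating receptor Fcgr4 passed the test in neither direction. With 9 Gy day 3 EVs, 4 of the 8 tested genes fell (Fcer1g, Fcgr1, Fcgr2b and Fcgr3) and 0 rose, beside 41.3% of all tested genes that fell and 11.2% that rose. At day 7 the same 4 and Syk fell, 5 of 8, and 0 rose, beside 49.1% that fell and 11.9% that rose. Under this housekeeping scaling the share of these genes that fell is close to that of the panel. The 8 genes had a median log2 fold change of -0.92 at day 3 and -1.33 at day 7, beside -0.46 and -0.45 for all tested genes. By sample values, 4 of the 8 lay wholly below the sham samples at day 3 (43.9% of tested genes did, and 11.9% lay wholly above) and 5 of the 8 at day 7 (49.1% below and 12.6% above).

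**Figure D1:**
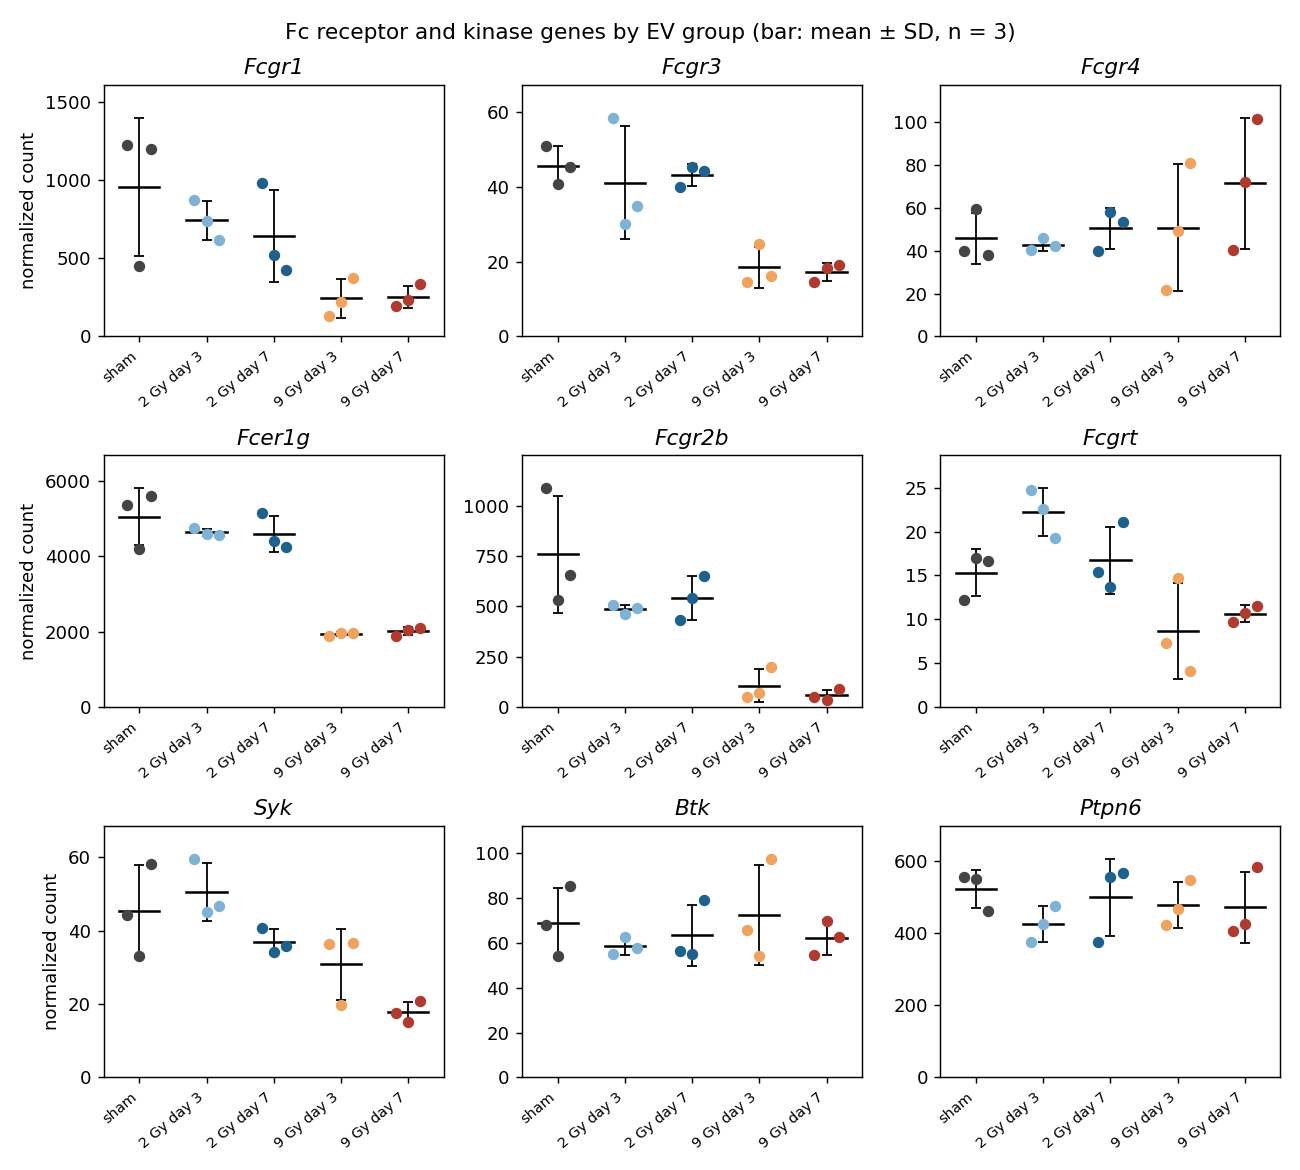
Normalized count (linear axis from 0) of each of the 9 genes in the 15 samples, grouped by EVs on the x axis. Points are samples, with replicates 1 to 3 from left to right, and bars are mean ± SD of 3 samples. All 6 samples with 9 Gy EVs lie below the other 9 for Fcer1g, Fcgr1, Fcgr2b and Fcgr3, and not for Fcgr4, Fcgrt, Syk, Btk or Ptpn6. The share of all tested genes that do so was not counted for this split. Against the 2 Gy samples alone 36.1% of tested genes lay wholly lower.

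Fcgr2b, the inhibitory IgG receptor, had normalized counts of 1086, 532 and 657 in the sham samples. Its 9 Gy day 3 samples had 51.0, 68.8 and 199, which rest on raw counts of 7, 14 and 49. Its 9 Gy day 7 samples had 47.1, 35.9 and 90.2, from raw counts of 78, 57 and 156. Every 9 Gy sample was below every sham sample, and replicate 3 was the highest of both 9 Gy groups. Fcgr2b fell at both days, with a log2 fold change of -2.75 at day 3 (SE 0.45, edgeR adjusted p = 0.00019), which is 6.72-fold lower, and of -3.71 at day 7 (SE 0.42, adjusted p = 7.2e-06), which is 13.1-fold lower. Among the 269 tested genes it had the 6th lowest log2 fold change at day 3 and the 7th lowest at day 7. Leaving out 1 sample at a time gave log2 fold changes of -3.63 to -2.40 at day 3 and -4.19 to -3.36 at day 7, all past the threshold.

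Fcgr1, the high-affinity IgG receptor, varied most among the sham samples, at 1225, 450 and 1200 normalized counts, with the highest 2.73 times the lowest. The 9 Gy day 3 samples were at 131, 221 and 377, on raw counts of 18, 45 and 93, and the 9 Gy day 7 samples at 196, 233 and 333. The groups do not overlap, although the lowest sham sample, replicate 2, is close to the highest 9 Gy sample. Fcgr1 fell 3.83-fold at day 3 (log2 fold change -1.94, SE 0.45, adjusted p = 0.0029) and 3.77-fold at day 7 (-1.91, SE 0.42, adjusted p = 0.0015).

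Fcgr3, a low-affinity activating receptor, was counted at low levels, with 51.0, 40.6 and 45.3 normalized counts in the sham samples. The 9 Gy day 3 samples had 14.6, 24.6 and 16.2, which are raw counts of only 2, 5 and 4, and the 9 Gy day 7 samples had 14.5, 18.2 and 19.1, from raw counts of 24, 29 and 33. Both 9 Gy groups lay below all sham samples. Fcgr3 fell 2.42-fold at day 3 (log2 fold change -1.28, SE 0.36, adjusted p = 0.0093) and 2.62-fold at day 7 (-1.39, SE 0.23, adjusted p = 0.00018). Fcgr2b and Fcgr3 are close relatives in sequence, and the regions that the probes bind are not given in the sources used here, so how far each probe separates them was not tested.

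Fcgr4, another activating receptor, had 39.9, 59.5 and 37.9 normalized counts in the sham samples. At 9 Gy day 3 it had 21.8, 49.2 and 81.1 (raw counts 3, 10 and 20), and at 9 Gy day 7 it had 40.5, 72.3 and 102 (raw counts 67, 115 and 176). The groups overlap, and both 9 Gy groups are widely spread, with replicate 3 the highest and replicate 1 the lowest in each. The log2 fold change was 0.25 (95% interval -0.67 to 1.17, adjusted p = 0.64) at day 3 and 0.64 (95% interval -0.06 to 1.34, adjusted p = 0.10) at day 7. At day 7 the call depends on 1 sample and on the scaling. Without replicate 1 of the 9 Gy day 7 group the log2 fold change was 0.92 and passed the threshold (adjusted p = 0.020), and it was 0.82 and passed (adjusted p = 0.033) when the scale was set by those housekeeping genes alone that averaged 100 counts or more.

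Fcer1g, the gamma chain that Fcgr1, Fcgr3 and Fcgr4 need at the cell surface, varied least of the 9 genes within both 9 Gy groups. Its normalized counts were 5365, 4187 and 5599 in the sham samples, 1878, 1957 and 1967 in the 9 Gy day 3 samples and 1888, 2039 and 2097 in the 9 Gy day 7 samples. The 6 samples with 9 Gy EVs span a narrow range far below the lowest sham sample. Fcer1g fell 2.61-fold at day 3 (log2 fold change -1.38, SE 0.13, adjusted p = 1.4e-06) and 2.52-fold at day 7 (-1.33, SE 0.13, adjusted p = 1.2e-06).

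Fcgrt encodes the receptor that rescues IgG and albumin from breakdown inside the cell. Its raw counts were 11, 18 and 18 in the sham samples, 22, 27 and 21 at 2 Gy day 3 and 17, 16 and 20 at 2 Gy day 7. They were 1, 3 and 1 at 9 Gy day 3 and 16, 17 and 20 at 9 Gy day 7. After scaling, all 3 of the 9 Gy day 7 samples were below the sham samples (9.66, 10.7 and 11.6 against 12.2, 17.0 and 16.6 normalized counts), and the 2 Gy day 3 samples were above them (24.7, 22.6 and 19.3). Fcgrt entered a test only when no filter on low counts was set. There edgeR called it lower with 9 Gy than with 2 Gy EVs, both days together (log2 fold change -0.99, adjusted p = 0.0062), as it did 173 of the 561 genes, and called it against sham at neither 9 Gy day. At day 7 the 9 Gy samples, at 9.66 to 11.6 normalized counts, lay below the 2 Gy samples at 13.7 to 21.1. No background was subtracted from these raw counts of 1 to 27, and how far they lie above background was not tested.

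Syk, the kinase that binds phosphorylated ITAMs, had 44.4, 33.1 and 58.3 normalized counts in the sham samples. Its 9 Gy day 3 samples had 36.4, 19.7 and 36.5, from raw counts of 5, 4 and 9, which overlap the sham samples. Its 9 Gy day 7 samples had 17.5, 15.1 and 20.8, all below the lowest sham sample. Syk fell 2.53-fold at day 7 (log2 fold change -1.34, SE 0.23, adjusted p = 0.00022), whereas its log2 fold change of -0.56 at day 3 (95% interval -1.24 to 0.12) did not pass the threshold (adjusted p = 0.15). The difference between the 9 Gy days was -0.78 (SE 0.34, adjusted p = 0.99).

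Btk, a Tec-family kinase downstream of Syk, ranged from 53.8 to 85.1 normalized counts in the sham samples, from 54.1 to 97.3 at 9 Gy day 3 and from 54.3 to 69.8 at 9 Gy day 7. Its log2 fold changes of 0.10 (95% interval -0.46 to 0.66, adjusted p = 0.75) and -0.15 (-0.60 to 0.30, adjusted p = 0.56) did not pass the threshold. Ptpn6 encodes the phosphatase SHP-1, which acts on ITIM-bearing receptors. It ranged from 461 to 557 normalized counts in the sham samples, from 422 to 547 at 9 Gy day 3 and from 406 to 584 at 9 Gy day 7. Its log2 fold changes were -0.12 (-0.54 to 0.30, adjusted p = 0.63) and -0.15 (-0.55 to 0.26, adjusted p = 0.51). Both genes overlapped the sham samples throughout.

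**Figure D2:**
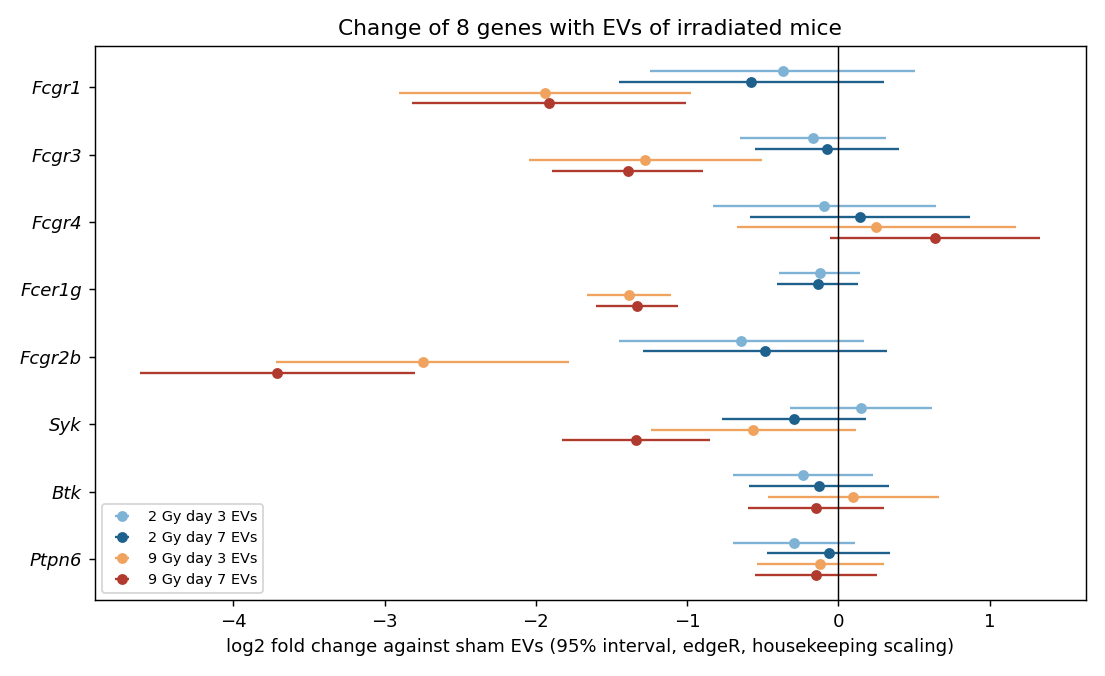
Log2 fold change (x axis) of the 8 tested genes against sham EVs, with 95% intervals from edgeR under housekeeping scaling, colored by EV group. The intervals of Fcgr1, Fcgr2b, Fcgr3 and Fcer1g lie below 0 for both 9 Gy groups, that of Syk for 9 Gy day 7 alone, and all intervals of the 2 Gy groups cross 0.

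In the group titled 9 Gy day 3, 2 of the 4 calls depend on the samples with the conflicting day label. With these left out, 1 sample stood for the group and its spread was borrowed from the rest of the fit. Then Fcer1g (-1.36, adjusted p = 0.00053) and Fcgr2b (-1.93, adjusted p = 0.022) still passed the threshold, Fcgr1 had a log2 fold change of -1.34 (edgeR adjusted p = 0.127) and Fcgr3 had one of -1.48 (adjusted p = 0.073). When they were placed at day 7 instead, the 5 falls at 9 Gy day 7 all passed. Leaving out replicate 3 of both 9 Gy groups, a choice made after seeing the data, kept all but Fcgr3 at day 3 (-1.15, adjusted p = 0.053).

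Scaling moved all of these values. Under housekeeping scaling the median gene had a log2 fold change of -0.46 at day 3 and -0.45 at day 7. It was at 0.01 and 0.03 under TMM scaling, which assumes that most genes do not change, at 0.02 and 0.03 under scaling to the median gene, and at 0.56 and 0.65 under scaling to the total count. The share of tested genes called lower at day 3 was 22.3% under TMM, 22.7% under median and 12.3% under total-count scaling, and the share called higher was 21.9%, 22.3% and 45%. At day 7 these shares were 28.3%, 28.6% and 11.5% lower and 27.9%, 28.3% and 53.2% higher. Of the 8 genes, 3 were called lower at day 3 and 5 at day 7 under both TMM and median scaling, and 1 at each day under total-count scaling.

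Fcgr2b was called lower under all 4 scalings at both days, with log2 fold changes of -2.75 to -1.78 at day 3 and -3.71 to -2.67 at day 7. Fcer1g and Fcgr1 were called lower under 3 of the 4 at each day, all but total-count scaling. Fcgr3 was called lower under 1 at day 3 and under 3 at day 7, and Syk under 0 and 3. Fcgr4 was called higher under 3 of the 4 at day 7, all but scaling to the 14 housekeeping genes, with 1.11 under TMM (edgeR adjusted p = 0.0067). Btk and Ptpn6 were called higher under total-count scaling alone at each day, and so was Fcgr4 at day 3 (1.26). Relative to the median gene, Fcgr2b, Fcgr1, Fcgr3, Fcer1g and Syk were thus lower and Fcgr4 was higher with 9 Gy day 7 EVs.

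**Figure D3:**
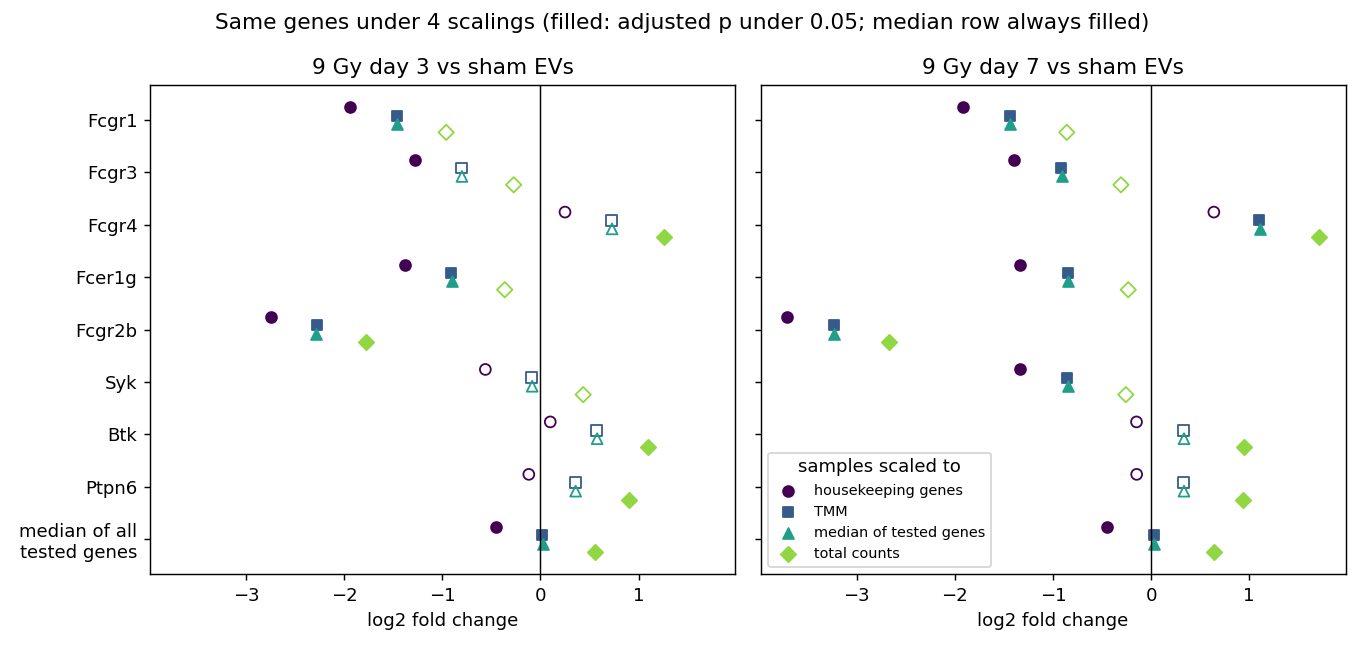
Log2 fold change (x axis) of the 8 genes and the median of all tested genes with 9 Gy EVs against sham EVs under 4 scalings, day 3 on the left and day 7 on the right. Filled symbols passed an adjusted p of 0.05 for single genes, and the row of the median carries no test. Fcgr2b has the lowest value of the 8 and is filled under every scaling, and Fcgr4 lies to the right of 0 under every scaling.

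A ratio of 2 genes within a sample does not depend on scaling. The log2 ratio of Fcgr4 to Fcgr2b raw counts was -4.77, -3.16 and -4.11 in the sham samples. It was -1.22, -0.49 and -1.29 in the 9 Gy day 3 samples and -0.22, 1.01 and 0.17 in the 9 Gy day 7 samples. All 6 samples with 9 Gy EVs, at -1.29 to 1.01, were above the other 9, at -4.77 to -3.16. The mean ratio shifted from sham by 3.01 at day 3 (8.07-fold) and by 4.34 at day 7 (20.2-fold), and by 0.51 and 0.59 at 2 Gy day 3 and day 7, whose samples overlap the sham samples. Only the shift of the ratio between groups is meaningful here, as its size within a sample depends on the probes.

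The other ratios to Fcgr2b shifted less. Fcgr1 over Fcgr2b shifted from sham by 1.06 at 9 Gy day 3 and by 1.95 at day 7, Fcgr3 over Fcgr2b by 1.69 and 2.35, and Fcer1g over Fcgr2b by 1.66 and 2.44 on the log2 scale. In each of these ratios both 9 Gy groups were above all sham samples, and the 9 Gy day 7 samples were also above all 2 Gy samples, which the 9 Gy day 3 samples overlapped. The 2 Gy day 3 samples were above all sham samples too for Fcer1g over Fcgr2b (3.22 to 3.32 against 2.31 to 3.09, a shift of 0.47), and the 2 Gy groups overlapped sham in the others. With replicates 1 and 2, the samples of conflicting day label, left out, a choice made after seeing the data, the shift at 9 Gy day 3 was 0.66 for Fcgr1, 0.38 for Fcgr3, 0.52 for Fcer1g and 2.72 for Fcgr4, each over Fcgr2b. Without replicate 3 it was 2.35 for Fcgr3 over Fcgr2b. Syk over Ptpn6 shifted by -0.44 at 9 Gy day 3, where samples overlap, and by -1.16 at 9 Gy day 7, where all 3 samples (-4.53, -4.82 and -4.81) were below the sham samples (-3.65, -4.05 and -2.99). Btk over Ptpn6 shifted by 0.18 and 0.03, with overlap. The ratios to Fcgr2b share the gene with the largest fall as their denominator, so its fall raises each of them. They restate the fold changes above free of scaling and are not separate evidence. No test was made on the ratios, and how often other pairs of genes separate the groups in this way was not counted.

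**Figure D4:**
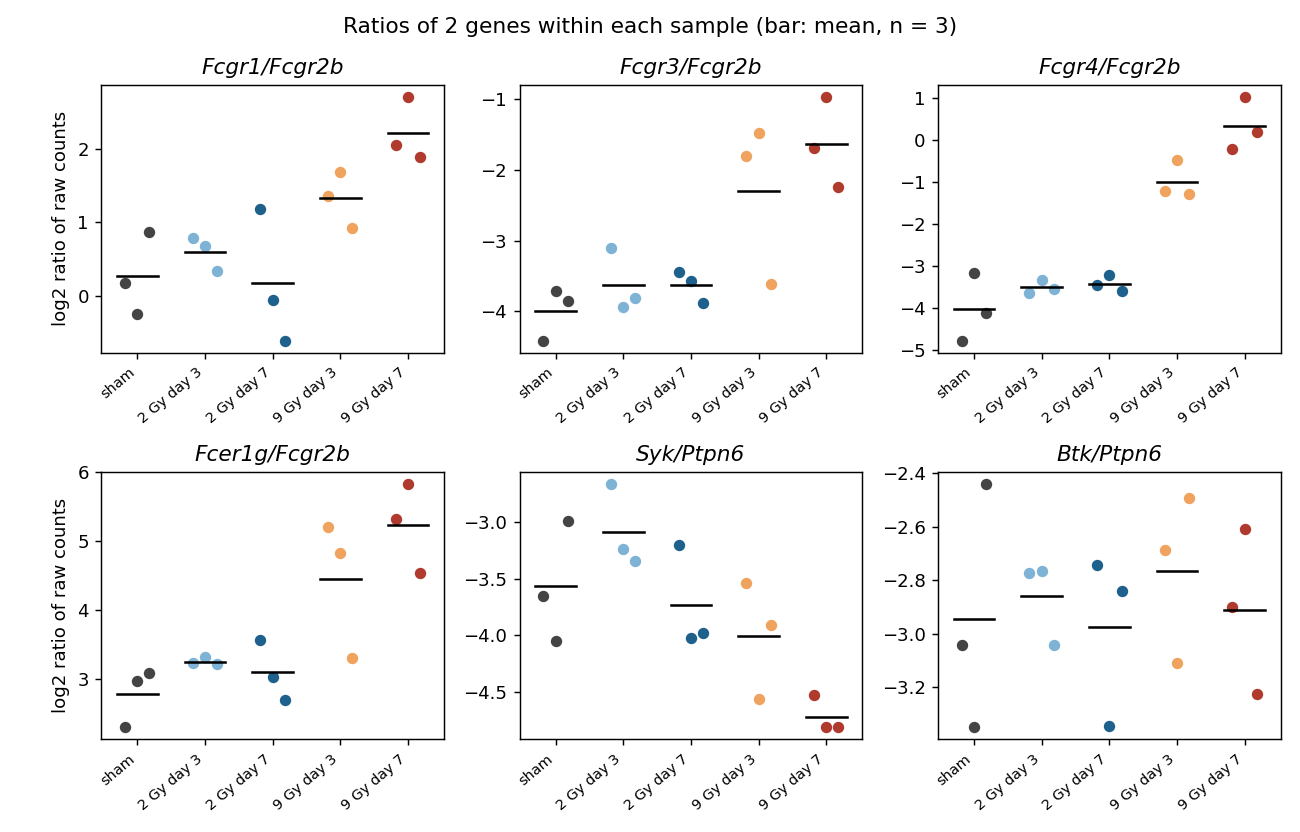
Log2 ratio of raw counts of 2 genes within each sample (y axis, a separate range in each panel), grouped by EVs on the x axis, with points for samples and bars for means of 3. For Fcgr4/Fcgr2b the 6 samples with 9 Gy EVs lie between -1.29 and 1.01 and the other 9 between -4.77 and -3.16, whereas Btk/Ptpn6 overlaps in all groups.

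EVs of 2 Gy mice were compared with sham EVs in the same way. Here edgeR called 0 of the 8 genes at 2 Gy day 3 and 0 at 2 Gy day 7, beside 0% of all tested genes at each day. At an unadjusted p under 0.05 there were also 0 of the 8 at each day (7 and 1 of all tested genes, which became 22 and 27 without sham replicate 2, with 0 and 2 of the 8, namely Fcgr1 and Syk at day 7, and at day 7 became 16 without its own replicate 1, with Fcgr1 of the 8), and DESeq2 with the same scaling called 0 of the 8. Fcgr2b had 505, 462 and 491 normalized counts with 2 Gy day 3 EVs, all below the lowest sham sample of 532, and its log2 fold change was -0.64 (95% interval -1.45 to 0.17, adjusted p = 0.998). It was the only one of the 8 whose 2 Gy day 3 samples did not overlap the sham samples, where 8.18% of tested genes lay wholly below and 4.83% wholly above. At 2 Gy day 7 it had 434, 541 and 652, which overlap, as did all of the 8 genes at that day, where 1.49% of tested genes lay wholly below and 2.6% wholly above. Fcgr1 had 871, 737 and 619 at 2 Gy day 3 and 981, 521 and 427 at 2 Gy day 7, of which only the last lies outside the range of the sham samples, with log2 fold changes of -0.37 and -0.57 (95% interval -1.45 to 0.30). Fcer1g was close to sham, at 4751, 4603 and 4573 and at 5140, 4403 and 4240, with log2 fold changes of -0.12 (95% interval -0.39 to 0.15) and -0.14 (-0.40 to 0.13). The log2 fold changes of Fcgr3, Fcgr4, Syk, Btk and Ptpn6 with 2 Gy EVs were between -0.29 and 0.15.

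The direct comparison of doses, both days together, gave 5 of 8 genes lower with 9 Gy than with 2 Gy EVs and 0 higher, beside 52% of tested genes lower and 15.6% higher. Fcgr2b was lower by a log2 fold change of -2.67 (SE 0.30, edgeR adjusted p = 3.7e-06), Fcgr1 by -1.45 (SE 0.30, adjusted p = 0.00089), Fcer1g by -1.23 (SE 0.09, adjusted p = 4.6e-08), Fcgr3 by -1.21 (SE 0.21, adjusted p = 0.00020) and Syk by -0.88 (SE 0.19, adjusted p = 0.0012). For Fcgr2b, Fcgr1, Fcer1g and Fcgr3, each of the 6 samples with 9 Gy EVs was below each of the 6 with 2 Gy EVs, as was so for 36.1% of tested genes (7.81% lay wholly above). Syk overlapped between the doses, and its call held under housekeeping scaling alone of the 4. Fcgr2b was called lower under all 4, whereas Fcer1g, Fcgr1 and Fcgr3 lost their calls under total-count scaling. There they were at -0.09, -0.36 and -0.10 (edgeR adjusted p = 0.46, 0.29 and 0.79). Fcgr4 was at 0.42 (95% interval -0.16 to 1.00), and at 0.56 without replicate 1 of the 9 Gy day 7 group, which passed the threshold (edgeR adjusted p = 0.047). Btk was at 0.16 (-0.21 to 0.52) and Ptpn6 at 0.05 (-0.25 to 0.34). Under TMM scaling Fcgr4, Btk and Ptpn6 were called higher with 9 Gy EVs, by 0.88, 0.62 and 0.51, beside 33.1% of tested genes called higher and 29.7% lower. Under median and total-count scaling, with 32.3% and 62.5% of tested genes called higher and 30.5% and 13.4% lower, the same 3 genes were called higher.

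Between day 7 and day 3, edgeR called 0 of the 8 genes at 9 Gy and 0 at 2 Gy, beside 0% of all tested genes in both, and 0 for the difference of these differences (also 0%). DESeq2 called 0 in each. At an unadjusted p under 0.05, 1 of the 8 stood at 9 Gy (Syk) and 0 at 2 Gy and in the interaction, beside 6, 4 and 4 of all 269 genes. Paired by replicate number, 1 of the 8 stood at 9 Gy and 2 at 2 Gy, beside 25 and 64 of all. Fcgr2b had a log2 difference of -0.96 between the 9 Gy days (95% interval -1.96 to 0.04), and one of -0.08 without replicate 3 of 9 Gy day 3 and of -1.44 without replicate 3 of 9 Gy day 7. With the samples of conflicting day label left out it was -1.78 (edgeR adjusted p = 0.257), and it was -0.89 (edgeR adjusted p = 0.189) when samples were paired by replicate number. No gene of the 8 was free of overlap between the 9 Gy days, where 3.72% of tested genes lay wholly lower at day 7 and 2.6% wholly higher. Syk had 59.6, 45.1 and 46.8 normalized counts at 2 Gy day 3 and 40.8, 34.3 and 35.8 at 2 Gy day 7. These do not overlap, as was so for 2.97% of tested genes in this direction and 4.09% in the other, and the log2 difference of -0.44 did not pass the threshold (paired by number, adjusted p = 0.107).

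Other genes of ITAM signaling, from a list chosen with earlier results of these data known, were on the panel for 22 of 46 names, and 18 of these were tested. Of the 18, 7 fell and 1 rose at each 9 Gy day, beside 41.3% of all tested genes that fell and 11.2% that rose at day 3 and 49.1% and 11.9% at day 7. With 2 Gy EVs 0 were called at either day, beside 0% of all tested genes. Their median log2 fold change was -0.57 at 9 Gy day 3 and -0.50 at day 7, beside -0.46 and -0.45 for all tested genes. At 9 Gy day 7 the largest falls on this list were those of Itgam, the alpha chain of complement receptor CR3 (log2 fold change -1.60, SE 0.17, edgeR adjusted p = 4.6e-06), of the Src-family kinase Fyn (-1.54, SE 0.26, adjusted p = 0.00018) and of the kinase Src (-1.26, SE 0.25, adjusted p = 0.00059). Trem2, a lipid-binding receptor of macrophages, rose by 1.62 (SE 0.49, adjusted p = 0.011).

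Tyrobp, the other ITAM adaptor of macrophages and the partner of Trem2, was singled out after its values were seen. It had a mean of 3242 ± 243 normalized counts with sham EVs, 3330 ± 121 at 9 Gy day 3 and 3327 ± 199 at 9 Gy day 7 (SD, n = 3). Its log2 fold change was 0.04 at both days (SE 0.10 each, edgeR adjusted p = 0.75 and 0.76), where that of Fcer1g was -1.38 and -1.33. The difference between the pair of adaptors was not tested.

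**Figure D5:**
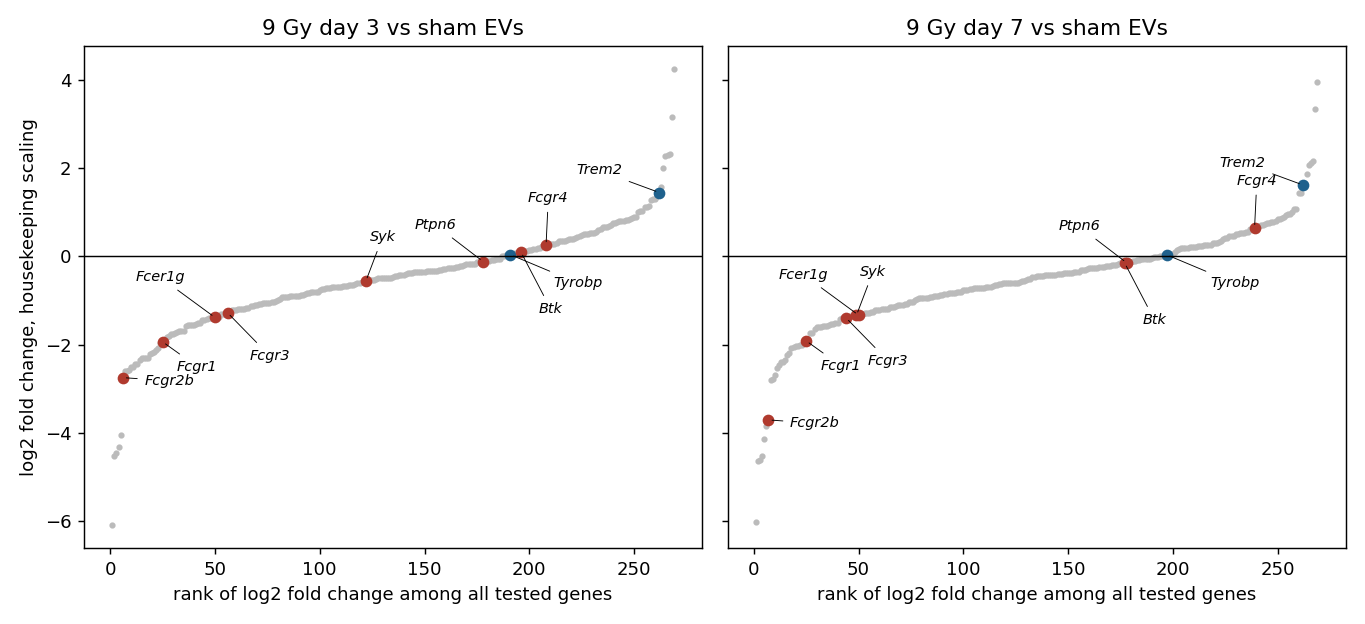
Log2 fold change under housekeeping scaling (y axis) of all 269 tested genes in rank order (x axis), 9 Gy day 3 on the left and 9 Gy day 7 on the right. Red points are the 8 Fc receptor and kinase genes and blue points are Tyrobp and Trem2. Fcgr2b is among the 7 lowest genes at both days, and Tyrobp lies near 0.

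Of the inhibitory partners, 8 of 20 listed genes were on the panel and 4 were tested. Of these, 1 fell at 9 Gy day 3 and 2 fell at 9 Gy day 7, namely Ceacam1, an ITIM-bearing adhesion receptor (log2 fold change -1.54, SE 0.30, edgeR adjusted p = 0.00059), and Lilrb4, an inhibitory receptor of myeloid cells (-0.45, SE 0.15, adjusted p = 0.017), beside 41.3% of all tested genes that fell at day 3 and 49.1% at day 7. The phosphatase genes Ptpn2 and Ptpn22 had log2 fold changes of 0.04 and -0.10 at day 7. Of 15 other immunoglobulin and opsonin receptors, 8 were on the panel and 1 was tested. This was C1qbp, which binds the globular heads of complement C1q, and it rose by 0.43 (SE 0.13, adjusted p = 0.013) at day 3 and by 0.42 (SE 0.13, adjusted p = 0.010) at day 7.

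Over the 15 samples, log2 normalized counts of Fcer1g ran most closely with Cd86 (Pearson r = 0.995) and Il6 (0.991), those of Fcgr1 with Msr1 (0.973) and Cd14 (0.956), and those of Fcgr2b with Litaf (0.979) and Ifngr2 (0.978). For Fcgr3 the closest were Tollip (0.932) and Arhgdib (0.931), and for Syk they were Csf2 (0.930) and Irak3 (0.895). Fcgr4, Btk and Ptpn6 had weaker best matches, at 0.732 with Irak1, 0.584 with Chuk and 0.795 with Cfp. These are descriptions, since the samples share the group differences and the scaling. Within groups, the sham sample with the lowest count of Fcgr1, Fcgr2b, Fcgr3, Fcer1g, Syk and Btk was replicate 2 each time.

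The summed level of macrophage markers was lower in both 9 Gy groups. Of 10 listed markers 8 were on the panel, and their summed normalized counts were 5316 to 8443 in the sham samples, 2548 to 4266 at 9 Gy day 3 and 2477 to 3824 at 9 Gy day 7. Such a sum weighs genes by their probes, and Cd14 was a large part of it. In the sham samples Cd14 had 2438 to 5221 raw counts, beside raw sums of 5629 to 9130. Before scaling, Tlr4 had 31 to 54 counts in the sham samples and 60 to 65 at 9 Gy day 7. The defining markers Cd14, Emr1 and Msr1 were well counted in all groups, whereas Marco was at 1 to 8 raw counts. Csf1r, the receptor for the macrophage growth factor CSF-1, went the other way, with log2 fold changes of 2.29 at 9 Gy day 3 (edgeR adjusted p = 8.9e-06) and 1.87 at 9 Gy day 7 (adjusted p = 1.4e-05). Their part in the falls above was not tested. Markers of other cells that bear Fc receptors were low, with at most 34 raw counts for any B cell or neutrophil gene, at most 28 for any NK cell gene and at most 11 for any mast cell or basophil gene. T cell genes reached 175 raw counts (Cd8a) and platelet genes 13.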

How the data were processed

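The authors deposited raw counts for 561 genes in each of 15 samples, as whole numbers without the counts of control probes. Their methods name nSolver for normalization, with settings not given in the sources used here, and those values were not used. The lowest count is 1, and no background was subtracted. In the 9 Gy day 3 samples 190 to 246 of the 561 genes were at 1, beside 5 to 11 in the other samples. A count of 1 may thus be a floor of these values.

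Samples were grouped by title. The genes and lists were chosen with earlier results of these data known. The rule for named genes was all genes of the set and, of each other list, the 3 largest changes at 9 Gy day 7 past the threshold in each direction, and further genes are marked or given as group examples. Each sample was scaled by the geometric mean of its 14 housekeeping genes (13 of them among those tested). The 269 genes averaging at least 20 counts over all samples entered 1 edgeR quasi-likelihood fit of all 5 groups (edgeR 4.0.16, R 4.3.3, prior count 0.125), and p-values were adjusted by Benjamini-Hochberg over the 269, with a threshold of 0.05. The 95% intervals come from the same fit. The procedure was tested on simulated data.

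Same-numbered samples deviated together from their group means between the 2 Gy days (correlations 0.365 to 0.779) and between the 9 Gy days (0.330 to 0.717), each over 0.1, so the numbers were taken as pairs between days only. This comes from the data and not from the design, and some samples of different number correlated as much (up to 0.611 and 0.421). RefSeq promoters of 300 bases were matched by symbol for 9 of the genes examined. Alternatives were other scalings, filters and floors, a replicate block, leaving out samples, DESeq2 1.42.0 and limma 3.58.1. Total counts were 43176 to 837995 per sample, and low counts carry counting error, which the fit includes in its variance along with the spread between samples.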

Additional observations from a re-analysis of the deposited data

How the results depend on the processing

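Most results kept their direction and their side of the threshold under the alternatives, but many alternatives could hardly change them. Many left out 1 sample from outside the groups compared, and several comparisons had no call to lose. Among 1968 comparisons of a single gene under an alternative with its reported value, 73 changed sign with both values short of the threshold and were counted as unchanged. Under total-count scaling Fcgr2b alone was still called lower at each 9 Gy day and for 9 Gy against 2 Gy. Total-count scaling turned the direction of Ptpn6 at 9 Gy day 3 (0.90 on the log2 scale) and day 7 (0.94), of Btk at day 7 (0.95) and of Syk for 9 Gy against 2 Gy (0.24). Setting counts under 20 to 20 raised the shallow 9 Gy day 3 samples by construction: Fcgr3 and Syk turned to 1.20 each at day 3, and in the comparison of 9 Gy with 2 Gy Fcgr3 turned to 0.024 and Syk to 0.0049. In that setting 7 genes passed at day 3 (3 lower and 4 higher), 4 passed between the 9 Gy days and 4 in the interaction. Of all 269 genes, 86 were lower and 97 higher at day 3, 87 lower between the 9 Gy days and 73 lower in the interaction. For 9 Gy against 2 Gy, 3 of the genes were lower and 2 higher (107 and 74 of all 269), against 5 and 0 in the reported fit. Some day 3 ratio shifts moved by more than the spread between samples. They became 0.43 for Fcgr1 over Fcgr2b, 3.56 for Fcgr3 over Fcgr2b, 1.38 for Syk over Ptpn6 and 0.85 for Btk over Ptpn6. The shift of Fcer1g over Fcgr2b also shrank, by less than this spread. With the samples of conflicting day label left out or placed at day 7, 2 genes passed at 9 Gy day 3 in either case (of all 269 genes, 70 were lower and 8 higher with them left out, and 66 and 8 with them placed at day 7, against 111 and 30), and with them left out the day 3 shift was 0.38 for Fcgr3 over Fcgr2b and 0.52 for Fcer1g over Fcgr2b. A filter at a mean of 100 counts left 4 of the genes tested, of which 3 passed at 9 Gy day 7 and 3 for 9 Gy against 2 Gy (of 164 genes, 92 were lower and 17 higher at 9 Gy day 7, and 102 and 20 for 9 Gy against 2 Gy).

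With the replicate number as a block in the fit of all groups, 4 of the 8 genes passed at 9 Gy day 3, 5 at 9 Gy day 7 and 5 for 9 Gy against 2 Gy, and 0 elsewhere, and the block changed no call of these genes. Of all 269 genes this fit called 116 lower and 30 higher at 9 Gy day 3, 136 and 36 at 9 Gy day 7, and 142 and 43 for 9 Gy against 2 Gy. The paired comparison of the 2 Gy days called 27 of the 269 genes against 0 without pairing, none of them among the 8. Depth limits the 9 Gy day 3 group most, where 90 of the tested genes were under 20 counts in all 3 samples.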
